A study of Homo sapiens with 12 samples.

Results

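The genes described here are 10 markers and regulators of epithelial and mesenchymal state, 5 epithelial (CDH1, EPCAM, ESRP1, ELF3 and GRHL2) and 5 mesenchymal (CDH2, VIM, SNAI2, ZEB1 and ZEB2), taken by symbol from the 25369 genes of the count and RPKM tables. Their poly(A)+ RNA was measured in 12 strand-specific libraries of RKO (a colon carcinoma line), A549 (a lung adenocarcinoma line) and H460 (a lung large cell carcinoma line). Each line was kept in normoxia or exposed to hypoxia (1% O2) for 24 h, with 2 libraries in each of the 6 groups, described by the submitters as independent biological replicates. No line carried an added allele or agent. RKO and A549 grew in DMEM and H460 in RPMI, so a difference between H460 and the other lines cannot be told apart from a difference of medium, and each tumour type was represented by a single line.

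Epithelial cells adhere through E-cadherin (encoded by CDH1) and EpCAM, and keep their splicing and transcription programs through factors such as ESRP1, ELF3 and GRHL2. Mesenchymal cells instead carry N-cadherin (CDH2) and vimentin (VIM) filaments. SNAI2, ZEB1 and ZEB2 encode zinc finger repressors that bind E-boxes at CDH1 and other epithelial genes, and cells that shift between these states are said to undergo epithelial-mesenchymal transition. Carcinoma lines often hold a mixture of both programs. In bulk RNA, a lower share of cells with a transcript and less of it per cell cannot be told apart.

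Counted reads per library ranged from 27350424 to 41757584, so 3 reads, the most that a count of 0 allows, correspond to 0.0718 to 0.110 CPM (counts scaled to a library of 1000000). Intervals and limits of this kind cover counting error only. Replicates of each group differed by more than counting error, since chi-square over degrees of freedom lay between 10.1 (hypoxic H460) and 75.9 (normoxic A549). Levels are given as the deposited RPKM (reads per kilobase of exon and 1000000 counted reads), and changes as log2 fold changes from edgeR with TMM scaling (trimmed mean of M values). Scaling by library size alone moved the median log2 change of all genes, relative to TMM, by 0.08 for RKO, -0.09 for A549 and -0.35 for H460, and that of the differences between lines by 0.13 to 0.39, so the RPKM of H460 understate its TMM-scaled increases. Of the colon markers, CDX2 passed the expression filter in RKO, with CDX1, VIL1 and LGR5 at 0 reads. Of 8 lung markers, NAPSA and AGER passed in A549, and these with NKX2-1 in H460, where NKX2-1 had 2 and 0 reads in normoxia and 87 and 98 in hypoxia. The surfactant gene SFTPA1 had 0 reads in both lung lines. CD68 was the highest of 8 immune and endothelial markers in every line. CD3E had 0 reads in all 12 libraries, while the list's summed level moved from 29.9 to 35.5 CPM in normoxia to 46.6 to 59.3 CPM in hypoxia in H460, from 431.5 to 476 CPM to 564 to 641 CPM in RKO, and overlapped in A549 (117 to 163 and 141 to 149 CPM). These sums were mostly CD68, whose mean went from 20.2 to 47.0 CPM in H460 and from 454 to 602 CPM in RKO. In H460 the means of CD14 (11.8 to 5.46 CPM) and KDR (0.624 to 0.454 CPM) went down. The part of these shifts in the results was not tested.

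Promoters of 5 of the 10 genes were in the RefSeq promoter table (GRCh38.p14), namely CDH2, ELF3, VIM, ZEB1 and ZEB2. The 250 bases before the start are shown for the 3 of these whose RNA rose in hypoxic H460 cells, VIM, ZEB2 and ELF3, so that a reader can set the letters beside the response. Capitals mark, on either strand, ACGTG or GCGTG, the core of the element bound by hypoxia-inducible factors, and CACCTG, an E-box of the kind bound by SNAI2 and the ZEB repressors. The VIM window lies at chr10:17227991-17228240 on the plus strand, the ZEB2 window at chr2:144520120-144520369 on the minus strand and the ELF3 window at chr1:202010337-202010586 on the plus strand.
VIM: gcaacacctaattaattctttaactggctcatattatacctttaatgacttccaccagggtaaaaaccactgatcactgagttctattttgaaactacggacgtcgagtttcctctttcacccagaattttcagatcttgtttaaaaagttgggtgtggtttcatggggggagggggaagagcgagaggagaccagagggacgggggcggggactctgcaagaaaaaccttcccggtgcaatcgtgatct
ZEB2: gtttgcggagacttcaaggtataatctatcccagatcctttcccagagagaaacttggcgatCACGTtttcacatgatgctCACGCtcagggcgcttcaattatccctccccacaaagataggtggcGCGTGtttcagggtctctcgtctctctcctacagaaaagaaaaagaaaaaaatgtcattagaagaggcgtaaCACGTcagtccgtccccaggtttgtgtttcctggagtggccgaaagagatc
ELF3: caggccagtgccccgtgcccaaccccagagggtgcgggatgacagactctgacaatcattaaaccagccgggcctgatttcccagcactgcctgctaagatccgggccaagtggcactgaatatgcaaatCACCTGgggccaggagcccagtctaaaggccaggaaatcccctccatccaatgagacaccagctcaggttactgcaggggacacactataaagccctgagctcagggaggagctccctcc

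The ZEB2 window held ACGTG 2 times and GCGTG 2 times, with none of these matches touching another. The ELF3 window held CACCTG 1 time and neither hypoxia core, and the VIM window held none of the 3 motifs. Of 35116 promoters of the same length, 18.51% held ACGTG, 32.22% GCGTG, 43.21% either and 17.49% CACCTG, so each motif is common. ZEB1 has 7 entries in the table, of which 1 held ACGTG 2 times, 1 held GCGTG 3 times and 1 held it 1 time, and CDH2 has 2, of which 1 held GCGTG 1 time, so the cores also lie before genes that were not called in hypoxia. The matches describe letters and not sites in use. The motifs and the windows shown were chosen after the values below were seen.

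The normoxic baseline asked which state each line starts from. CDH1 (GRCh37 chromosome 16, 68771195 to 68869444) was an A549 transcript. It had 15.3 and 14.5 RPKM in the A549 normoxia libraries, 0.0987 and 0.109 RPKM in those of H460, and 0.0231 and 0.0113 RPKM in those of RKO. The RKO values rest on 4 and 2 reads and the H460 values on 13 and 17, against 2958 and 2674 in A549, and no 2 lines overlapped. By CPM, normoxic A549 exceeded RKO 872-fold (95% exact interval 400 to 2378) and H460 143-fold (100 to 212). H460 lay above RKO 6.09-fold (2.50 to 17.9).

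EPCAM (chromosome 2, 47596287 to 47614167), a surface adhesion protein of epithelia, followed another order. Its normoxic level was 10.3 and 9.73 RPKM in A549, 2.77 and 3.11 RPKM in RKO and 0.277 and 0.305 RPKM in H460. RKO, which had the lowest CDH1, therefore held an intermediate EPCAM level. It was below A549 by a log2 difference of -1.78 ± 0.24 (SE, edgeR adjusted p = 1.15e-05). By CPM RKO exceeded H460 10.1-fold (6.93 to 15.1), on 30 normoxic H460 reads, where EPCAM did not pass the expression filter within that line.

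CDH2 (chromosome 18, 25530930 to 25757445), the mesenchymal cadherin, was high in the same line as CDH1. A549 had 43.9 and 57.0 RPKM in normoxia, or 7691 and 9533 reads. RKO had 6 and 18 reads and H460 10 and 18, so these lines overlapped (CPM ratio of RKO to H460 0.703, 0.390 to 1.26). CDH2 did not pass the expression filter within RKO or within H460. Its log2 difference of RKO against H460 was -0.53 ± 0.43, and -1.48 without RKO normoxia replicate 2, so it rested on 1 library. The RPKM ratio of CDH2 to CDH1 was 2.59 to 3.93 in the 4 A549 libraries. In RKO and H460 both cadherins were close to the limit of detection.

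VIM (chromosome 10, 17270258 to 17279592), the type III intermediate filament of mesenchymal cells, was the most abundant of the 10 transcripts in both lung lines. Normoxic A549 had 1057 and 887 RPKM, H460 547 and 516 RPKM, and RKO 4.92 and 5.39 RPKM. Each line stood apart from the others. Normoxic RKO was lower than A549 by a log2 difference of -7.57 ± 0.23 (190-fold, adjusted p = 1.75e-12) and lower than H460 by -6.72 ± 0.22 (105-fold, adjusted p = 3.42e-12). A549 was above H460 by 0.85 ± 0.17 (1.80-fold, adjusted p = 0.00073).

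**Figure D1:**
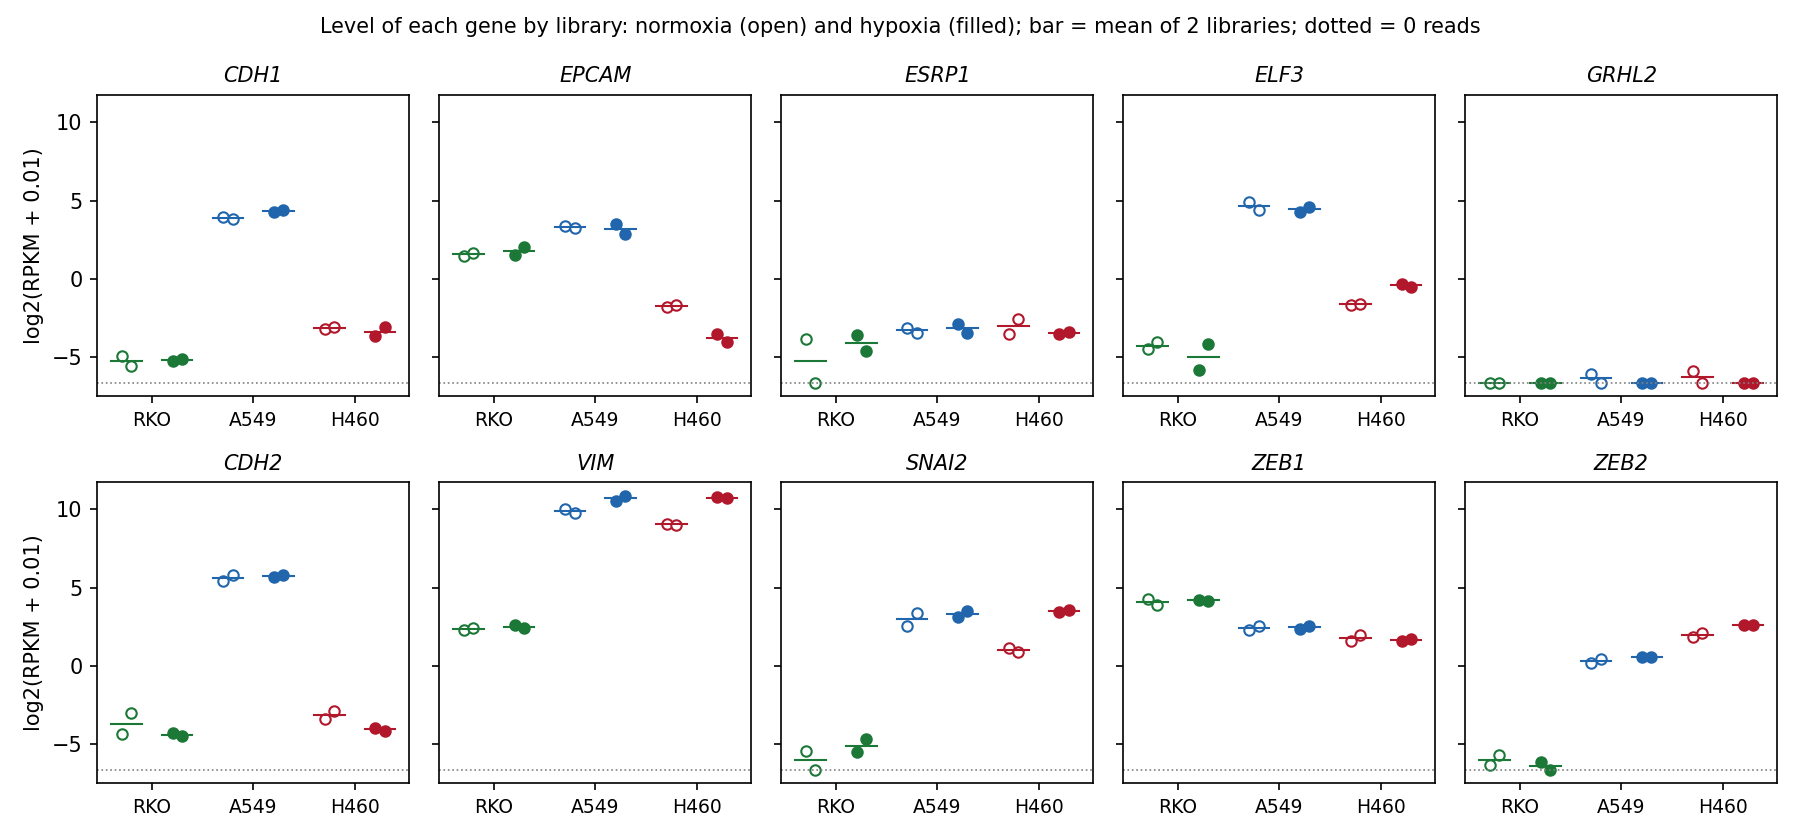
Level of each of the 10 genes in every library as log2(RPKM + 0.01), with normoxia as open and hypoxia as filled circles, bars at the mean of the 2 libraries of a group and a dotted line at 0 reads. CDH1, CDH2 and ELF3 are high in A549 alone of the 3 lines, ZEB1 is highest in RKO, and in H460 the filled circles of VIM, SNAI2, ZEB2 and ELF3 lie above the open ones.

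Among the epithelial regulators, ELF3 (chromosome 1, 201979690 to 201986315), an epithelium-specific ETS factor, reached 30.6 and 20.7 RPKM in normoxic A549. It was 0.304 and 0.323 RPKM in H460 and 0.0342 and 0.0501 RPKM in RKO, on 27 and 34 and on 4 and 6 reads, and no 2 lines overlapped. A549 exceeded H460 by 6.33 ± 0.29 (adjusted p = 2.34e-10), and by CPM it exceeded RKO 609-fold (331 to 1271).

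The remaining epithelial regulators were barely detected. ESRP1 (chromosome 8, 95653364 to 95719694), a splicing factor of epithelial isoforms, had 0 to 20 reads per library and 130 in all. Its normoxic RPKM was 0.0584 and 0 in RKO, below the 0.105 and 0.0823 of A549 and the 0.0769 and 0.162 of H460, which overlapped. By CPM, A549 exceeded RKO 3.25-fold (1.44 to 8.26) and H460 exceeded it 4.26-fold (1.89 to 10.8), on 8 RKO reads from 1 library. GRHL2 (chromosome 8, 102504668 to 102681952), a grainyhead factor that sustains CDH1 in epithelia, had 2 reads in the series, 1 in A549 normoxia replicate 1 and 1 in H460 normoxia replicate 1. A549, with the highest CDH1, thus held 1 GRHL2 read over its 4 libraries. Both genes failed the expression filter in every comparison, and no difference in GRHL2 was detectable at this depth.

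The repressors divided the lines differently. ZEB1 (chromosome 10, 31608101 to 31818742) had 19.7 and 15.1 RPKM in normoxic RKO, 4.90 and 5.96 RPKM in A549 and 3.06 and 3.88 RPKM in H460. RKO lay above A549 by 1.68 ± 0.18 (adjusted p = 1.01e-06) and above H460 by 2.30 ± 0.18 (adjusted p = 4.30e-08). A549 was above H460 by 0.63 ± 0.18 (adjusted p = 0.00701), but this was 0.49 without A549 normoxia replicate 2 and 0.47 without H460 normoxia replicate 1, under the fold threshold both times.

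ZEB2 (chromosome 2, 145141942 to 145277958) ran in nearly the reverse order. Normoxic H460 had 3.55 and 4.25 RPKM, A549 1.13 and 1.35 RPKM, and RKO 0.00238 and 0.00931 RPKM on 1 and 4 reads. H460 exceeded A549 3.18-fold (log2 difference of A549 against H460 -1.67 ± 0.19, adjusted p = 4.25e-06), and by CPM it exceeded RKO 667-fold (285 to 2056). The RPKM ratio of ZEB1 to ZEB2, added after the values were seen, was 3.47 to 4.40 in the A549 libraries and 0.485 to 0.912 in those of H460. In the 3 RKO libraries with a ZEB2 read it was 1620 to 8274.

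SNAI2 (chromosome 8, 49830239 to 49833999), which encodes SLUG, was a transcript of the lung lines. Its normoxic level was 5.80 and 10.6 RPKM in A549 and 2.15 and 1.87 RPKM in H460, which did not overlap (2.01 ± 0.28, adjusted p = 2.74e-05). The RKO normoxia libraries had 1 and 0 reads. By CPM, A549 exceeded RKO by a ratio of 1251.5 (224 to 49469), and H460 exceeded RKO by a ratio of 307 (54.6 to 12176).

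Counted over the 8 genes tested in the joint fit, RKO was higher than A549 in 1 (ZEB1) and lower in 7. Of all 15595 genes tested, 26.0% were called higher and 34.1% lower in this comparison. RKO was higher than H460 in EPCAM and ZEB1 and lower in 5 genes (27.2% and 34.7% of all genes), with CDH2 not called. A549 was higher than H460 in 7 genes (26.9%) and lower in ZEB2 (25.2%). A call needed an adjusted p under 0.1 and a fold over 1.5. CDH1, CDH2, ELF3, SNAI2 and ZEB2 passed the filter through the lung lines and not through RKO. EPCAM and CDH2 did not pass it within H460. The counts between lines are therefore a description.

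Within normoxic RKO the order of RPKM was ZEB1 (17.4 ± 3.29, SD, n = 2), VIM (5.15 ± 0.329) and EPCAM (2.94 ± 0.243), which did not overlap. The other RKO genes were under 0.12 RPKM in every normoxia library, and neighbours among them overlapped except ZEB2 and GRHL2. In normoxic A549 the order was VIM (972 ± 120), CDH2 (50.5 ± 9.23), ELF3 (25.7 ± 7.03), CDH1 (14.9 ± 0.584), EPCAM (10.0 ± 0.382), SNAI2 (8.20 ± 3.40), ZEB1 (5.43 ± 0.751) and ZEB2 (1.24 ± 0.156), where SNAI2 overlapped both EPCAM and ZEB1. In normoxic H460 VIM (532 ± 22.4) led ZEB2 (3.90 ± 0.496) and ZEB1 (3.47 ± 0.576), which overlapped, followed by SNAI2 (2.01 ± 0.196). Each epithelial gene lay under 0.33 RPKM in the normoxic H460 libraries.

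The RPKM ratio of VIM to CDH1 placed the lines on 1 scale. It was 61.2 to 90.0 in the 4 A549 libraries, 213 to 478 in the 4 RKO libraries, and in H460 5546 and 4737 in normoxia and 25574 and 15936 in hypoxia. The lines did not overlap, and the H460 libraries were split by oxygen while those of RKO were not. The A549 ratio was 69.0 and 61.2 in normoxia and 76.8 and 90.0 in hypoxia. The RKO ratios rest on 2 to 4 CDH1 reads per library and those of H460 on 10 to 18. RKO was lowest in both genes, so its place between A549 and H460 is not an intermediate level of either.

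**Figure D2:**
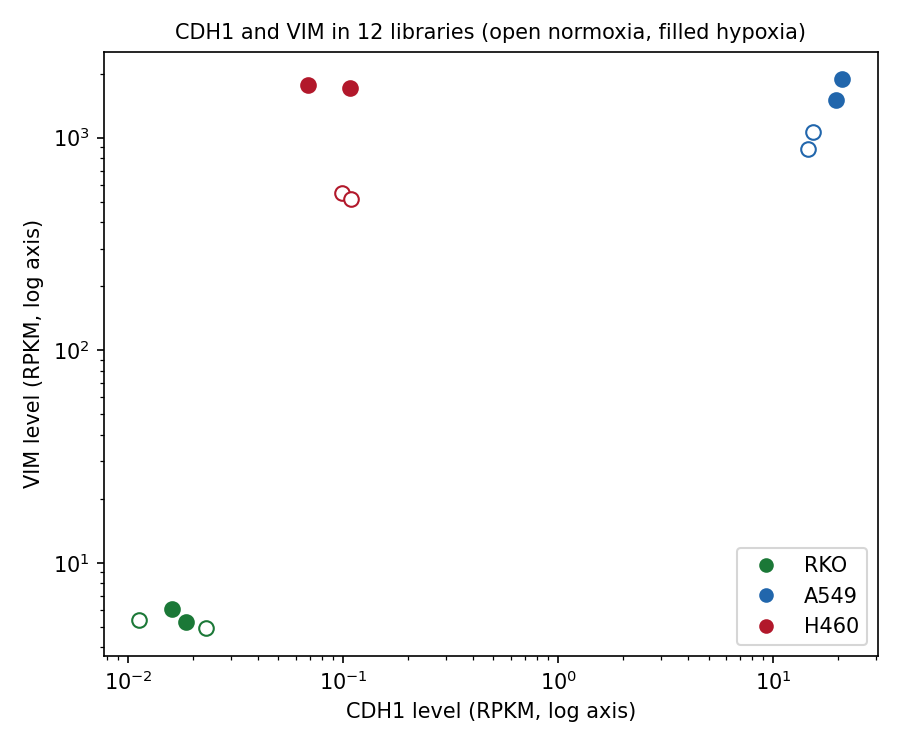
CDH1 (horizontal, RPKM, log axis) against VIM (vertical, RPKM, log axis) in the 12 libraries, with normoxia open and hypoxia filled. A549 sits high in both, H460 is low in CDH1 with VIM moving from 516 and 547 to 1716 and 1761 RPKM, and RKO is low in both.

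The next comparison asked what 24 h of hypoxia did to these genes within each line. In RKO 3 of the 10 genes passed the expression filter (over 0.5 CPM in at least 2 libraries), EPCAM, VIM and ZEB1, and edgeR called none, with 0 at an unadjusted p under 0.05 and 0 called by DESeq2 or limma. Of all 12817 genes tested in RKO, 18.8% were called higher and 15.1% lower. ZEB1 had 19.7 and 15.1 RPKM in normoxia and 18.4 and 17.9 in hypoxia (-0.02 ± 0.17, adjusted p = 0.935). VIM had 4.92 and 5.39 RPKM in normoxia and 6.05 and 5.24 in hypoxia (0.05 ± 0.22, adjusted p = 0.872), and EPCAM 2.77 and 3.11 RPKM against 2.86 and 4.01 (0.13 ± 0.27, adjusted p = 0.726). The groups of ZEB1 and VIM overlapped, as did those of EPCAM. The other 7 genes had 0 to 18 reads in each RKO library in either condition, where no change was detectable, and CDH1 had 6 reads in each condition.

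In A549 8 genes were tested and VIM was called, against 2.22% of 14251 genes called higher and 0.456% lower. VIM moved from 1057 and 887 RPKM to 1508 and 1888, without overlap, and rose by 0.90 ± 0.20 on the log2 scale (1.86-fold, adjusted p = 0.0794). This call was lost when scaled by library size (0.80, adjusted p = 0.114), without normoxia replicate 2 (0.76, adjusted p = 0.233) and without hypoxia replicate 2 (0.71, adjusted p = 0.292).

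CDH1 in A549 had 15.3 and 14.5 RPKM in normoxia and 19.6 and 21.0 in hypoxia. Its groups did not overlap either, but its change of 0.54 ± 0.17 (1.45-fold, adjusted p = 0.177) met neither threshold. CDH2, its mesenchymal counterpart, had 43.9 and 57.0 RPKM against 50.8 and 55.6 (0.17 ± 0.19). The repressors in A549 gave changes of 0.37 ± 0.30 (SNAI2), 0.11 ± 0.20 (ZEB1) and 0.35 ± 0.22 (ZEB2), and the epithelial genes EPCAM and ELF3 gave 0.01 ± 0.25 and -0.15 ± 0.23, none of them called (adjusted p from 0.465 to 0.992). The ZEB2 groups did not overlap, whereas those of the other 4 did.

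H460 gave the clearest change. Of 6 genes tested, SNAI2, VIM, ZEB2 and ELF3 rose and none fell, where 24.6% of 14080 genes were called higher and 27.3% lower. The 4 calls were made in each fit without 1 library. SNAI2 moved from 2.15 and 1.87 RPKM to 11.1 and 11.8, and from 124 and 128 reads to 707 and 862. In RPKM its hypoxic H460 level overlapped that of hypoxic A549 (8.56 and 11.2 RPKM), whereas its normoxic level was below normoxic A549. With TMM scaling the hypoxic levels did not overlap, at 29.6 and 29.7 CPM in H460 against 18.3 and 24.5 CPM in A549. SNAI2 in H460 rose by 2.86 ± 0.14 (7.28-fold, adjusted p = 7.99e-09).

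VIM in H460 moved from 547 and 516 RPKM to 1761 and 1716. The 2 conditions were well apart, and in RPKM the hypoxic libraries fell within the range of hypoxic A549. With TMM scaling they lay above it, at 4753 and 4380 CPM against 3267 and 4171 CPM in hypoxic A549. VIM in H460 rose by 2.06 ± 0.11 (4.18-fold with TMM, adjusted p = 1.85e-08), and CPM without TMM gave a ratio of 3.28.

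ZEB2 in H460 moved from 3.55 and 4.25 RPKM to 6.17 and 6.07, without overlap, and rose by 1.00 ± 0.10 (2.00-fold, adjusted p = 2.74e-06). With limma on log2(RPKM + 1) the change was 0.54 and not called. ZEB1, its paralogue, had 3.06 and 3.88 RPKM against 2.99 and 3.23, with overlapping groups (0.19 ± 0.12, adjusted p = 0.172, and -0.16 when scaled by library size). The ratio of ZEB1 to ZEB2 was thus 0.863 and 0.912 in normoxia and 0.485 and 0.532 in hypoxia.

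ELF3 was the epithelial gene that rose with these. It moved from 0.304 and 0.323 RPKM to 0.796 and 0.701, on 27 and 34 reads against 78 and 79. The change was 1.60 ± 0.26 (3.03-fold, adjusted p = 0.00016), which limma on log2(RPKM + 1) gave as 0.41, not called, and hypoxic H460 still lay below the lowest A549 library (19.6 RPKM).

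EPCAM ran the other way in H460 but failed the filter. It had 13 and 17 reads in normoxia and 4 and 3 in hypoxia, or 0.277 and 0.305 against 0.0772 and 0.0503 RPKM, without overlap. By CPM the ratio was 0.215 (95% exact interval 0.0797 to 0.499). It was called lower without the filter (-1.82, adjusted p = 0.018) and in the joint fit of 12 libraries (-1.82 ± 0.52, adjusted p = 0.00868). CDH2 had 10 and 18 reads against 7 and 7, a CPM ratio of 0.461 (0.224 to 0.905), but with TMM its change was -0.74 ± 0.49 in the joint fit (adjusted p = 0.219) and not called. CDH1 had 13 and 17 reads against 10 and 18 (0.13 ± 0.41, adjusted p = 0.795, and -0.22 when scaled by library size), and these groups overlapped.

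**Figure D3:**
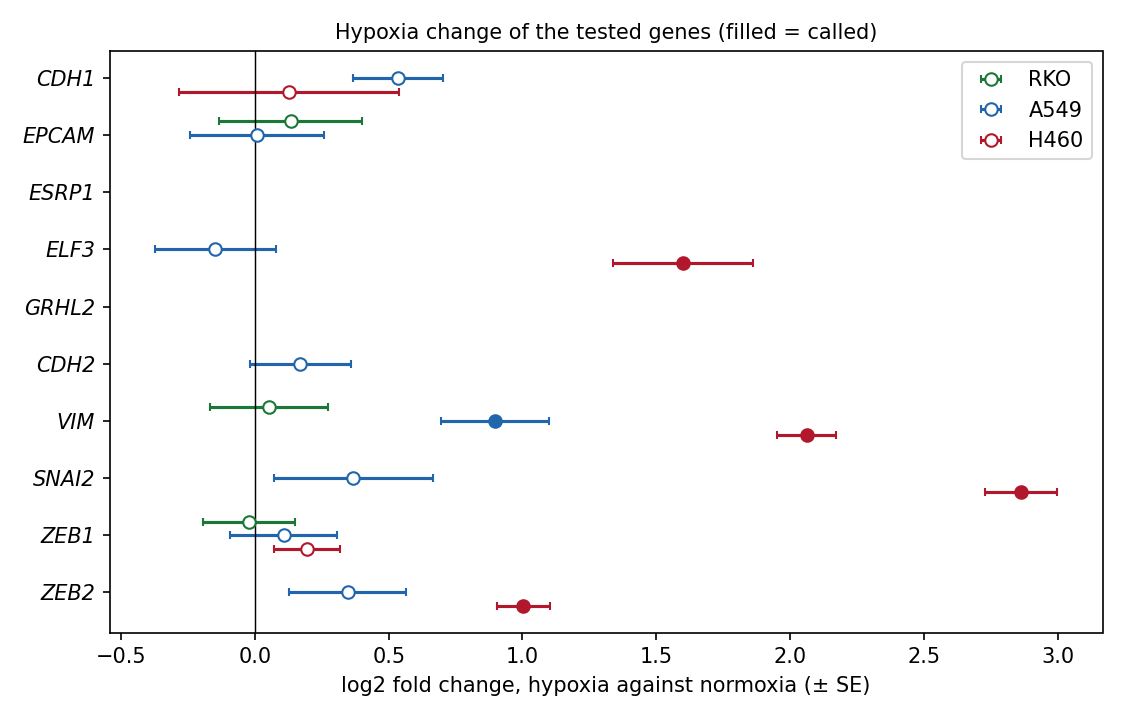
Log2 fold change of hypoxia against normoxia (horizontal, ± SE) for the genes tested in RKO, A549 and H460, filled where called. SNAI2 (2.86), VIM (2.06), ELF3 (1.60) and ZEB2 (1.00) are called in H460 and VIM (0.90) in A549, and ESRP1 and GRHL2 were not tested.

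The difference between lines in the hypoxia change was tested in the joint fit, as an interaction called at adjusted p under 0.1. A549 and H460 differed in 5 of 8 genes, against 36.0% of 15595 genes called in either direction (18.8% higher and 17.2% lower), with 1 of the 5 higher and 4 lower in A549. The SNAI2 change was lower in A549 than in H460 by -2.49 ± 0.38 (adjusted p = 0.000509), and that of VIM by -1.17 ± 0.24 (adjusted p = 0.00356). The ELF3 change was lower in A549 by -1.75 ± 0.37 (adjusted p = 0.0039). VIM was thus called higher in both lung lines, by different amounts. Its A549 call was lost when scaled by library size and in some fits without 1 library, as given above.

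EPCAM, which failed the filter within H460, changed by 1.84 ± 0.57 more in A549 than in H460 (adjusted p = 0.0275). This call rested on few H460 reads. It was lost without H460 hypoxia replicate 2 (1.49) and with limma on log2(RPKM + 1) (0.18, adjusted p = 0.634). The ZEB2 difference of -0.66 ± 0.27 (adjusted p = 0.08) was lost under library size scaling (-0.40, adjusted p = 0.302). It was also lost without any 1 of the 4 H460 libraries, without either A549 hypoxia library and without A549 normoxia replicate 2 (-0.81 to -0.54).

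RKO and H460 differed in 3 of 8 genes, where the test called 37.6% of all genes (21.1% with a higher change in RKO and 16.4% with a lower one). VIM changed less in RKO by -1.96 ± 0.25 (adjusted p = 0.000128). EPCAM changed by 2.01 ± 0.57 more in RKO (adjusted p = 0.0166), on the same few H460 reads. That call was lost without H460 hypoxia replicate 2 (1.68). ELF3 changed by -2.34 ± 0.84 (adjusted p = 0.0485), which rested on 10 and 6 RKO reads and was lost without RKO hypoxia replicate 1 (-1.56) or RKO normoxia replicate 2 (-2.06), and was -3.83 without RKO hypoxia replicate 2.

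RKO and A549 differed in VIM alone of 8 genes (-0.80 ± 0.25, adjusted p = 0.0659), where the test called 14.6% of all genes (9.03% with a higher change in RKO and 5.53% with a lower one). That call was lost without either RKO normoxia library, RKO hypoxia replicate 2, A549 normoxia replicate 2 or A549 hypoxia replicate 2 (-0.83 to -0.59). ZEB1 did not differ beyond its error in any pair, with differences of -0.17 to -0.08 and SE of 0.24 to 0.25, which were 0.05 to 0.22 when scaled by library size. The 3 pairs share libraries and are not independent of each other.

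Antisense transcripts at these loci were read apart from the genes, because reads were counted by strand, and were chosen after their values were seen. VIM-AS1 had 55 and 57 reads in normoxic and 96 and 110 in hypoxic H460 (1.11 ± 0.22, adjusted p = 0.000773). In RKO, where VIM was not called, VIM-AS1 went from 142 and 88 reads to 273 and 337 (1.33 ± 0.32, adjusted p = 0.0077). ZEB1-AS1 fell in H460, from 197 and 255 reads to 115 and 140 (-0.59 ± 0.16, adjusted p = 0.00629), while ZEB1 was not called. In A549 VIM-AS1 was not called (0.85 ± 0.33, adjusted p = 0.245), at a change close to that of VIM (0.90). ZEB2-AS1 had 0 to 17 reads per library and was not tested. Whether the changes of sense and antisense RNA differed was not tested.

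A wider list of 36 other epithelial genes (junction proteins, keratins, surface proteases and their inhibitors, and transcription factors) set the 5 epithelial genes in context. In RKO 26 were tested, of which 6 rose and 1 fell (18.8% and 15.1% of all genes), with a median log2 change of 0.04 against 0.01 over all genes. In A549 1 of 28 rose and 0 were called lower, with 1 lower at an unadjusted p under 0.05 and 1 by DESeq2 (2.22% and 0.456% of all genes, median 0.20 against -0.01). In H460 7 of 26 rose and 8 fell (24.6% and 27.3% of all genes, median -0.07 against -0.04). With the replicate number as a block, 7 rose and 1 fell in A549. The H460 shares were near those of all genes.

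PRSS8, the serine protease prostasin, had 6 and 5 reads in normoxic and 334 and 153 in hypoxic RKO. It passed the expression filter only through the hypoxia libraries, so no test is given for it, and the counts above include such genes. MUC1, a surface mucin, moved from 66 and 204 reads in RKO to 267 and 334 (1.11 ± 0.41, adjusted p = 0.0553), and its call was lost without RKO normoxia replicate 1 (0.54), while without normoxia replicate 2 the change was 2.08. ERBB3, a receptor of the EGFR family, rose by 0.67 ± 0.19 (adjusted p = 0.019), with 0.49 without hypoxia replicate 1 and 0.54 without normoxia replicate 2, both not called. KRT18, a keratin of simple epithelia with several pseudogenes that can share its reads, fell from 124 and 121 RPKM to 60.7 and 64.8 (-1.05 ± 0.15, adjusted p = 0.000521). The 4 genes show no overlap of the RKO conditions.

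In H460, DSP, the desmosomal plaque protein desmoplakin, rose from 0.162 and 0.216 RPKM to 0.968 and 1.02 (2.73 ± 0.19, adjusted p = 1.22e-07). MUC1 rose from 11.3 and 7.92 RPKM to 25.2 and 27.6 (1.81 ± 0.14, adjusted p = 4.52e-07). KRT19, an epithelial keratin, rose from 447 and 408 RPKM to 803 and 761 (1.22 ± 0.10, adjusted p = 7.71e-07). AP1M2, the adaptor subunit for sorting to the basolateral membrane, fell from 8.46 and 7.19 RPKM to 3.35 and 3.59 (-0.82 ± 0.15, adjusted p = 0.000333). DSP, MUC1 and KRT19 therefore rose in the same libraries as VIM and SNAI2.

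A list of 36 other mesenchymal genes (matrix and contractile proteins, receptors and transcription factors) was counted in the same way. In RKO 7 of 18 tested genes rose and edgeR called 0 lower (18.8% and 15.1% of all genes, median 0.45 against 0.01 over all genes), with 0 lower at an unadjusted p under 0.05 and 0 by DESeq2. In A549 5 of 29 rose and 0 were called lower (2.22% and 0.456% of all genes, median 0.55 against -0.01), again with 0 lower at an unadjusted p under 0.05 and 0 by DESeq2, and 12 rose with the replicate block. In H460 10 of 27 rose and 3 fell (24.6% and 27.3% of all genes, median 0.45 against -0.04), and 7 rose and 5 fell when scaled by library size.

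Among these, ACTA2 (smooth muscle actin) rose in RKO from 0.796 and 0.850 RPKM to 2.47 and 2.31 (1.46 ± 0.31, adjusted p = 0.00413). CALD1, the actin-binding protein caldesmon, rose from 20.8 and 16.5 RPKM to 61.0 and 45.0 (1.43 ± 0.21, adjusted p = 0.00059). MMP14, a membrane-bound matrix protease, rose from 7.84 and 8.76 RPKM to 18.3 and 19.4 (1.10 ± 0.16, adjusted p = 0.000573). The conditions did not overlap in any of these 3 genes.

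In A549 COL1A1 and COL5A1, which encode fibrillar collagen chains, rose. COL1A1 moved from 8.30 and 15.0 RPKM to 21.9 and 69.7, so that 1 library was far above the others, and the change of 2.08 ± 0.48 (adjusted p = 0.0824) became 0.99 without hypoxia replicate 2, 2.69 without hypoxia replicate 1 and 1.73, not called, without normoxia replicate 1. COL5A1 moved from 101 and 140 RPKM to 248 and 512 (1.76 ± 0.33, adjusted p = 0.0409), and to 1.12 without hypoxia replicate 2. Scaling by library size ended the call of COL1A1 (1.98, adjusted p = 0.141). The same A549 hypoxia library held the highest value of both genes.

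In H460 AXL, a receptor tyrosine kinase, rose from 10.0 and 8.82 RPKM to 42.7 and 39.7 (2.48 ± 0.11, adjusted p = 4.07e-09). FN1, the matrix glycoprotein fibronectin, rose from 726 and 612 RPKM to 1821 and 1669 (1.74 ± 0.14, adjusted p = 4.67e-07). WNT5A, a secreted WNT ligand, fell from 22.3 and 24.4 RPKM to 6.25 and 8.35 (-1.33 ± 0.11, adjusted p = 7.91e-07). None of these conditions overlapped.

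**Figure D4:**
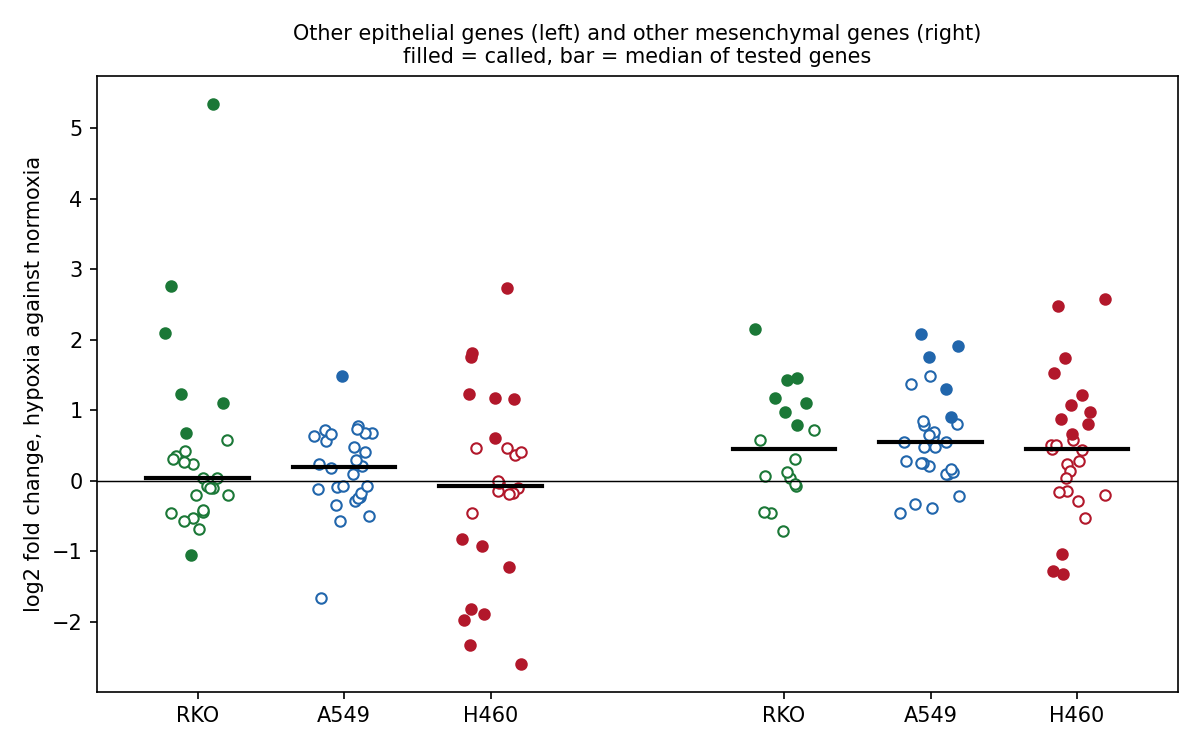
Log2 fold change of hypoxia against normoxia for each tested gene of the other epithelial list (left) and the other mesenchymal list (right) in RKO, A549 and H460, filled where called, with bars at the median. The mesenchymal medians lie at 0.45, 0.55 and 0.45 and the epithelial medians at 0.04, 0.20 and -0.07.

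Between lines in normoxia, the other mesenchymal genes were lower in RKO than in A549 in 26 of 31 tested and higher in 2 (34.1% and 26.0% of all genes), and lower than in H460 in 23 and higher in 5 (34.7% and 27.2%). The other epithelial genes did not follow one direction in RKO, with 11 higher and 19 lower of 33 than in A549 and 15 higher and 13 lower than in H460. A549 was above H460 in 23 of these 33 genes and below it in 5 (26.9% and 25.2% of all genes). Within RKO 18 genes of the mesenchymal list and 26 of the epithelial list passed the filter, and within H460 27 and 26. The joint fit tested 31 and 33, so some genes entered only with the libraries of other lines. These counts between lines are therefore a description. In that sense RKO was low in VIM, SNAI2 and ZEB2 and in most of the mesenchymal list, with ZEB1 as an exception.

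The genes whose pattern over the 12 libraries was most like each of the 10 were read from the root mean square difference of centred log2(TMM CPM + 0.5) over 13738 genes, as a description in which points share line and library. CDH1 lay nearest to ELFN2 (0.22), CDH2 to SLC22A3 (0.24) and ELF3 to ATP8B1 (0.36). VIM lay nearest to L1CAM (0.44), SNAI2 to MAP3K15 (0.25) and ZEB2 to DUSP4 (0.26). EPCAM lay nearest to DEPDC7 (0.30) and ZEB1 to ERCC1 (0.14), the latter on a pattern with the smallest spread. No 2 of the 8 genes shared a nearest gene, and none of the 10 was among the 3 nearest of another. Scaling by library size kept 23 of the 24 nearest genes.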

How the data were processed

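Poly(A)+ RNA of 12 libraries (2 per group) was measured by strand-specific single-end sequencing. According to the methods and the submitters' processing notes, reads were trimmed, aligned to GRCh37/hg19 with TopHat2 2.0.13 and the UCSC annotation, filtered for mapping quality under 10, marked for duplicates with Picard 1.129, and counted over exons by strand with HTSeq 0.6.1. The authors deposited raw counts per gene, which were used as given. The authors deposited RPKM as well, which equalled the count per kilobase and 1000000 counted reads (100% of values within 0.1%) and so carries no TMM factor.

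Genes over 0.5 CPM in at least 2 libraries were tested with edgeR 4.0.16 (R 4.3.3, quasi-likelihood F test, TMM) on the 4 libraries of each line, and baselines and interactions in a joint fit of 12 libraries. Adjusted p values are Benjamini-Hochberg values over all genes tested. Standard errors are the log2 fold change divided by the square root of F, an approximation. Count ratios have exact conditional 95% intervals. Gene coordinates are 1-based on GRCh37 and promoter coordinates on GRCh38.p14. The fits were tested on simulated data. Alternatives used DESeq2 1.42.0, limma 3.58.1 on log2(RPKM + 0.1) and log2(RPKM + 1), other scalings, filters, thresholds and sample sets.

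All 10 genes are named, with, per line and list, up to 3 genes called in each direction with the largest change, a mean of 100 counts and no overlap, and the nearest genes. Some genes that meet this rule are not reported here. The genes and lists were chosen with earlier results of these data known. Deviations of same-numbered libraries from their group means correlated in each line (r of 0.357 in RKO, 0.371 in A549 and 0.145 in H460). These r are taken across genes, which are not independent. The numbers may therefore pair the libraries, although the labels do not state shared handling. The reported tests did not use such pairing, which entered only as the replicate block among the alternatives. With 2 libraries per group the deviations are equal and opposite, so each r rests on a single contrast.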

Additional observations from a re-analysis of the deposited data

Results flagged for a closer look

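The hypoxia change of 5 genes differed between lines by the interaction test, and these 9 differences are flagged. VIM differed in all 3 pairs, by -0.80 (RKO against A549), -1.96 (RKO against H460) and -1.17 (A549 against H460) on the log2 scale. EPCAM differed from H460 by 2.01 in RKO and 1.84 in A549, with 7 reads in hypoxic H460. ELF3 differed from H460 by -2.34 in RKO, where it had 16 reads or fewer over 4 libraries, and by -1.75 in A549. SNAI2 differed by -2.49 and ZEB2 by -0.66 between A549 and H460. No group had enough libraries for a test of outlying samples.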

How the results depend on the processing

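No called change turned direction, while some changes that were not called did, such as ZEB1 in H460 (0.19, and -0.16 with library size). Of 499 counts of calls recomputed under an alternative, 436 stayed within 1.5 times the reported count and 63 moved, and of 1229 recomputed gene changes 1164 kept their call, 53 lost it and 12 gained one. The cause was not tested. With limma on RPKM + 1 the EPCAM difference between A549 and H460 was lost (0.18) and that of CDH1 gained (0.44). In A549 the 1 gene of the 10 called higher became 0 with a fold over 2, library size scaling and the 3 limma fits (0 to 1 with each library left out). The A549 epithelial list (1 higher, 0 lower) gave 5 and 1 with DESeq2, 6 and 1 in the joint fit, 4 and 1 without a filter, and 0 higher with library size and the limma fits (0 to 7 higher and 0 to 1 lower with libraries left out). With the replicate block it gave 7 higher and 1 lower. The A549 mesenchymal list (5 higher) gave 9 with DESeq2, 12 in the joint fit, without a filter and with the replicate block, 2 with library size, 1 with limma on RPKM + 0.1, and 0 with limma on RPKM + 1 or unfiltered (4 to 12 with libraries left out). The replicate block moved no other count and changed no other call. In H460, limma on RPKM + 1 gave 2 of the 10 genes higher for 4, 4 epithelial genes lower for 8 and 6 mesenchymal genes higher for 10, as did a fold over 2 for the last. The joint fit, no filter and unfiltered limma each called 1 gene (EPCAM) lower for 0. The H460 epithelial count lower was 5 to 8 with libraries left out, and 5 mesenchymal genes were lower for 3 with library size or no minimum fold. In RKO the epithelial list gave 3 higher for 6 with a filter of 1 CPM (2 to 6 with libraries left out) and 2 or 3 lower for 1 in the joint fit or with no minimum fold (1 to 3), and the mesenchymal list 2 lower for 0 in the joint fit. In normoxia, 3 for 5 genes were lower in RKO than in H460 with limma on RPKM + 1. Between lines, limma on RPKM + 1 gave 2 for 1 gene lower in RKO than A549 and 0 for 1 higher in RKO than H460, and limma on RPKM + 0.1 gave 4 for 2 lower there, filtered or not. With libraries left out these counts were 0 to 1, 0 to 1 and 1 to 3, and the count higher in A549 than H460 was 0 to 1. A lone library in such a fit is assumed to vary like the other groups. The 2 libraries of a group limit the precision of every change, and those of genes with few reads, such as CDH1, CDH2 and ELF3 in RKO, are the least certain.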

Other observations

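Some epithelial transcripts were higher in RKO than in the lung lines, and the genes here were singled out after their values were seen. ESRP2, the paralogue of the splicing factor ESRP1, had 22.1 and 27.7 RPKM in normoxic RKO, 0.0931 and 0.260 RPKM in A549 and 11 reads in each normoxic H460 library. GRHL1, the paralogue of GRHL2, had 4.60 and 4.32 RPKM in normoxic RKO, 0.879 and 0.398 RPKM in A549 and 0.355 and 0.385 RPKM in H460. OVOL2, a repressor of mesenchymal genes, had 108 and 124 reads in normoxic RKO, 9 and 6 in A549 and 0 in each H460 library. OCLN, the tight junction protein occludin, had 8.98 and 8.60 RPKM in normoxic RKO, 2.32 and 3.01 RPKM in A549 and 0.367 and 0.413 RPKM in H460. Others went the other way, such as KRT8, with 3.82 and 3.86 RPKM in normoxic RKO against 820 and 685 RPKM in A549 and 354 and 330 RPKM in H460. Of the 33 other epithelial genes tested, 19 were called lower in RKO than in A549 and 11 higher (34.1% and 26.0% of all genes). Against H460, 13 were called lower in RKO and 15 higher (34.7% and 27.2% of all genes).

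Beside EPCAM, 3 other epithelial genes with few reads, named after their values were seen, were lower in the hypoxic H460 libraries. OCLN had 66 and 88 reads in normoxia and 18 and 17 in hypoxia. MARVELD2, a junction protein of cell corners, had 40 and 43 reads in normoxia and 4 and 10 in hypoxia, and GRHL1 35 and 45 against 8 and 3. The 3 genes passed the expression filter only through the normoxia libraries, so no test is given for them. The same libraries showed the rises of DSP, KRT19 and MUC1.

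NKX2-1, a lung lineage factor, had 2 and 0 reads in normoxic and 87 and 98 in hypoxic H460. It passed the filter only through the hypoxia libraries and was singled out after its values were seen.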
